A study of Mus musculus with 6 samples.

Results

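Neurexins and neuroligins are a pair of cell-surface protein families that hold a synapse together from its opposite sides. The data described here are the positions at which the neuronal splicing regulators NOVA1 and NOVA2 were crosslinked to RNA from 5 of their genes, Nrxn2 and Nrxn3 (neurexins) and Nlgn1, Nlgn2 and Nlgn3 (neuroligins). A cluster, which is a run of overlapping sequenced RNA fragments (tags), was taken as a member when at least 1 nt of it lay in the annotated span of such a gene, in the direction of the gene. This gave 109 of the 9988 NOVA1 clusters and 432 of the 36591 NOVA2 clusters. Another neurexin gene was not analysed here.

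NOVA1 and NOVA2 had been immunoprecipitated, each with its own antibody, from ultraviolet-irradiated cortex of wild-type CD1 mice at embryonic day 18.5 (HITS-CLIP), with 3 libraries for each protein and the same strain, tissue and age for both. The labels give neither the sex nor the number of animals behind a library. The authors pooled the 3 libraries into 1 list per protein and kept clusters with at least 10 tags, so the lists hold no value per library, no spread between replicates can be given from them and no test was made. The study calls the value of this limit a peak height, so a tag count here may be the greatest depth of tags in a cluster, and a sum over clusters is a sum of these values. Intervals below are Wilson 95% intervals of shares and cover counting error only. Tag counts were not scaled to library size, and the whole lists hold 304703 NOVA1 and 1309270 NOVA2 tags, a NOVA2 to NOVA1 ratio of 4.30, which is a ratio of what passed the limit and not of library depth. A tag count also rises with the amount of a transcript, which was not measured here, and in bulk cortex fewer cells of a type and less RNA per cell cannot be told apart. Marker genes with a NOVA2 cluster were 4 of 6 for cortical projection neurons and 2 of 5 for interneurons. They were 2 of 4 for astrocytes and radial glia, 1 of 3 for oligodendrocytes and 0 of 3 for blood and microglia. With a NOVA1 cluster they were 3, 2, 2, 0 and 1 in the same order. Over all protein-coding genes 22.7% held a NOVA2 and 12.7% a NOVA1 cluster. With 3 to 6 genes per type, these counts are too few to compare cell types.

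Neurexins sit mainly in the presynaptic membrane and neuroligins in the postsynaptic membrane, where they bind each other across the cleft. Each neurexin gene makes a long alpha form and, from a promoter inside the gene, a shorter beta form, and neurexin transcripts are spliced alternatively at several sites. The best known is splice site 4, a single exon whose presence alters which postsynaptic partners are bound. Neuroligin 1 is known from excitatory synapses, neuroligin 2 from inhibitory synapses and neuroligin 3 from both, and neuroligins carry small alternative inserts at sites A and B. NOVA proteins bind the RNA motif YCAY (Y is C or U), and NOVA binding inside or upstream of an exon is known to accompany its skipping, whereas binding downstream is known to accompany its inclusion.

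The clusters of highest tag count in each gene differ in their number of YCAY, from many to none. They are printed here because the tag counts given below turn on them, 5′ to 3′ on the strand of the gene in the mm9 (NCBIM37) build, with every YCAY in capitals (T stands for U). The first 4 lie in introns and the last in coding sequence, and the Nrxn2 sequence is the 300-nt stretch with most YCAY of a 317-nt cluster.
Nrxn3, NOVA2, 611 tags, chr12:90090968-90091133: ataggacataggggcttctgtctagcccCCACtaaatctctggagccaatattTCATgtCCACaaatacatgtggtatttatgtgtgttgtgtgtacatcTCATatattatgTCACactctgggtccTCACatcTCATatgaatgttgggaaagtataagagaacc
Nlgn1, NOVA2, 315 tags, chr3:25761401-25761659: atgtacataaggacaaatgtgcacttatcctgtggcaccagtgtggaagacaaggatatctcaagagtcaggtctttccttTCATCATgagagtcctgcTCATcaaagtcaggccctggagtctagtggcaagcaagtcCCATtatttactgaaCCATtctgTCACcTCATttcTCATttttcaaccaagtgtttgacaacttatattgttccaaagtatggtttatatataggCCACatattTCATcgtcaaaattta
Nrxn2, NOVA2, 258 tags, chr19:6499765-6500064: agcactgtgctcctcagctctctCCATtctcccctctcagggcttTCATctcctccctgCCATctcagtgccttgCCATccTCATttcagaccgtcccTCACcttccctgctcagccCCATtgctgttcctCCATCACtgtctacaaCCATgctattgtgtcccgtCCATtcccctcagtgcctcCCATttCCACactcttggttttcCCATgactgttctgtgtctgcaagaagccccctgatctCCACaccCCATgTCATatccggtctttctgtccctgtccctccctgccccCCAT
Nlgn2, NOVA2, 63 tags, chr11:69645927-69646003: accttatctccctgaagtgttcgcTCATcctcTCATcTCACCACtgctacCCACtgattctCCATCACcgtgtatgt
Nlgn3, NOVA1, 71 tags, chrX:98510510-98510632: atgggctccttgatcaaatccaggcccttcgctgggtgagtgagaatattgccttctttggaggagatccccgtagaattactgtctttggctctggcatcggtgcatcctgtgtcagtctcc
The NOVA2 clusters of Nrxn3, Nlgn1, Nrxn2 and Nlgn2 hold 7, 10, 18 and 7 YCAY. The Nlgn3 cluster holds 0.

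Binding in these genes was concentrated in the long members. Nrxn3 (chr12:89961320-91573375, plus strand, 1612 kb) held 67 NOVA1 and 273 NOVA2 clusters, with 1592 and 10444 tags. Nlgn1 (chr3:25330733-26032656, minus strand, 702 kb) held 23 and 138 clusters, with 573 and 4867 tags. Together they held 90 of the 109 NOVA1 clusters (82.6%, 74.4 to 88.5) and 411 of the 432 NOVA2 clusters (95.1%, 92.7 to 96.8). Nrxn2 (chr19:6418731-6544169, plus strand, 125 kb) held 9 NOVA1 and 14 NOVA2 clusters, with 138 and 711 tags. Nlgn2 (chr11:69636624-69651286, minus strand, 14.7 kb) held 5 and 3 clusters, with 66 and 152 tags. Nlgn3 (chrX:98491178-98521302, plus strand, 30.1 kb) held 5 and 4 clusters, with 146 and 61 tags. All 5 genes therefore held clusters of both proteins, where 12.7% of protein-coding genes held a NOVA1 cluster and 22.7% a NOVA2 cluster. On the opposite strand of each span, and in the 10 kb downstream of each annotated end, there were 0 clusters of either list.

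Among 22380 protein-coding genes, Nrxn3 ranked 3 by number of NOVA1 clusters and 2 by number of NOVA2 clusters, and Nlgn1 ranked 26 and 16. Long genes can hold more clusters, so density was compared among the 200 protein-coding genes of at least 500 kb. Nrxn3 had 4.16 NOVA1 and 16.9 NOVA2 clusters per 100 kb, and Nlgn1 had 3.28 and 19.7, against medians of 0.468 and 3.33 over these long genes. By NOVA1 density Nrxn3 ranked 10 and Nlgn1 ranked 20, and by NOVA2 density the order was turned, with Nlgn1 at 9 and Nrxn3 at 16. In NOVA1 the short genes were denser than both, with 7.17 clusters per 100 kb in Nrxn2, 34.1 in Nlgn2 and 16.6 in Nlgn3. In NOVA2 Nlgn2 (20.5) stood above both long genes, and Nrxn2 (11.2) and Nlgn3 (13.3) stood below both.

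**Figure D1:**
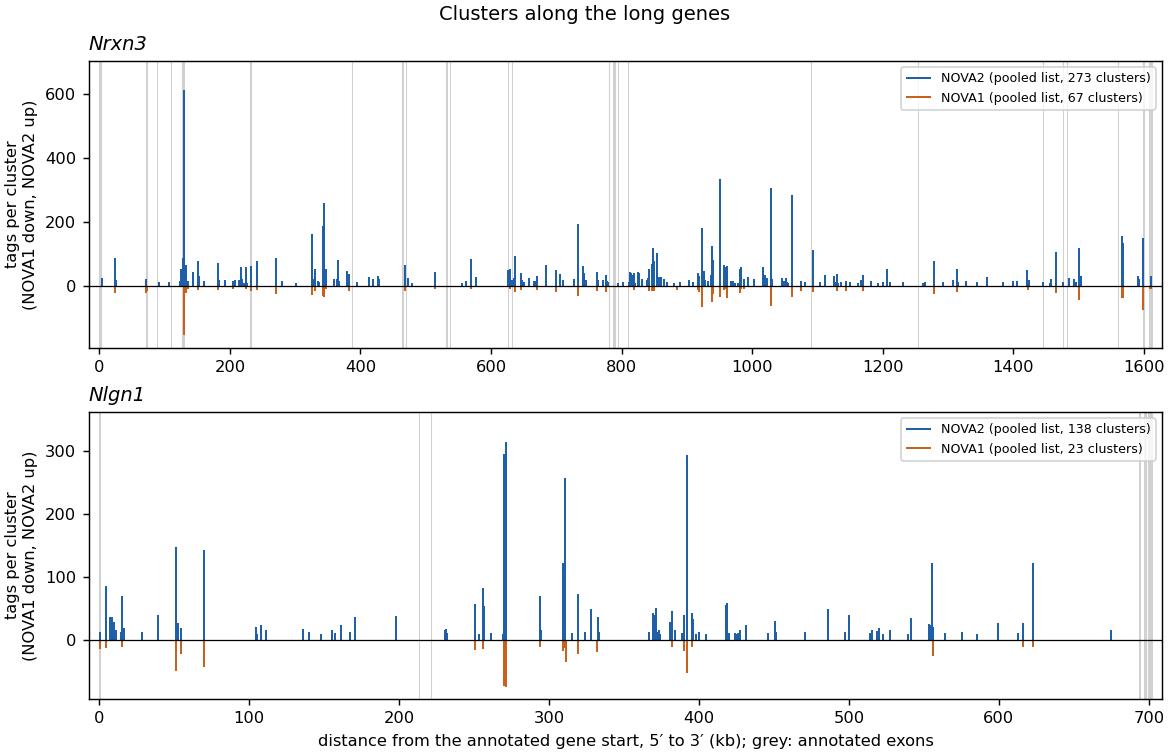
Tag count of each cluster (vertical axis, tags pooled over 3 libraries; NOVA2 upward, NOVA1 downward) against its distance from the gene start in kb for Nrxn3 and Nlgn1, with annotated exons in grey. The highest NOVA2 cluster of Nrxn3 (611 tags) stands 130 kb from the start, and the highest of Nlgn1 (315 tags) stands 271 kb from its start.

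In Nrxn3, clusters ran through almost the whole gene. With the span divided into 33 windows of 50 kb, NOVA2 clusters lay in all 33 and NOVA1 clusters in 30. The median gap between neighbouring NOVA2 clusters was 2448 nt, and 99 of 272 gaps were at most 1000 nt. Tags were less evenly spread, since 10 clusters carried 25.5% of the NOVA2 tags and 10 carried 38.1% of the NOVA1 tags. Introns given here with a length are stretches between annotated exons merged over all transcripts, so an intron of a single transcript can be longer. The longest such stretch of Nrxn3, 279 kb long, ended at the first exon of the beta-type transcript. It held 22 NOVA1 and 84 NOVA2 clusters with 527 and 3511 tags, the most of any such stretch of the gene in both lists. Its highest clusters had 333, 305 and 283 NOVA2 tags (chr12:90912374-90912522, chr12:90989780-90990101 and chr12:91022759-91022909). The NOVA1 clusters at the same places had 36, 63 and 34 tags.

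The highest cluster of Nrxn3 lay in a short stretch between merged exons. This 2792-nt stretch follows a 30-nt coding exon and ends at an exon of a noncoding transcript. Transcripts without that last exon have a longer intron there. The stretch held 2 NOVA1 clusters with 194 tags and 4 NOVA2 clusters with 886 tags. The 611-tag cluster printed above lay in it, 416 nt before an exon of a noncoding transcript, and its NOVA1 counterpart (chr12:90090968-90091208) had 155 tags, the highest NOVA1 count in any of the 5 genes. The 3' end of this stretch held a further NOVA2 cluster of 155 tags (chr12:90091287-90091552), overlapped by a NOVA1 cluster of 39 tags.

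Nlgn1 was bound in introns only. All 23 NOVA1 clusters and all 138 NOVA2 clusters lay in its 2 longest introns, 213 kb (6 and 36 clusters) and 473 kb (17 and 102 clusters), and 0 lay in its exons. NOVA2 clusters reached all 15 windows of 50 kb and NOVA1 clusters 9. The binding was more concentrated than in Nrxn3, with 39.2% of NOVA2 and 71.4% of NOVA1 tags in 10 clusters of each list. The pair of highest clusters lay in the longer intron, chr3:25761401-25761659 with 315 NOVA2 and 74 NOVA1 tags and chr3:25762749-25763105 with 295 and 73. Lower NOVA2 clusters of 22, 19 and 14 tags lay between them. The third highest NOVA2 cluster, chr3:25640534-25640683, had 294 tags, overlapped by 52 NOVA1 tags.

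The alpha-type part of Nrxn3, upstream of the inner start, was bound more densely than the rest. It made up 67.6% of the span and held 53 of 67 NOVA1 clusters (79.1%, 67.9 to 87.1) and 214 of 273 NOVA2 clusters (78.4%, 73.1 to 82.9). In NOVA2 this was 19.6 clusters per 100 kb before the inner start and 11.3 from it on. The first exon of the beta-type transcript (chr12:91050923-91052080) had 1 cluster of each list within 5 kb downstream, 3156 nt away in NOVA2 with 112 tags, and 0 upstream within 5 kb.

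In Nrxn2 the balance was the other way. The alpha-type part made up 63.1% of the span and held 3 of 9 NOVA1 and 7 of 14 NOVA2 clusters, a density of 8.85 NOVA2 clusters per 100 kb against 15.1 from the inner start on. With so few clusters the interval of the NOVA2 share was 26.8 to 73.2% and includes the share of the span. Of the gene's 711 NOVA2 tags, 390 lay in 4 clusters in the intron just after the beta-type first exon (chr19:6497828-6498531), at 178, 344, 700 and 1223 nt from it, and 0 clusters lay within 5 kb upstream. These clusters had 50, 71, 11 and 258 tags. NOVA1 was low there, with 11 tags in a cluster 172 nt from the exon and 12 tags inside the 258-tag cluster.

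**Figure D2:**
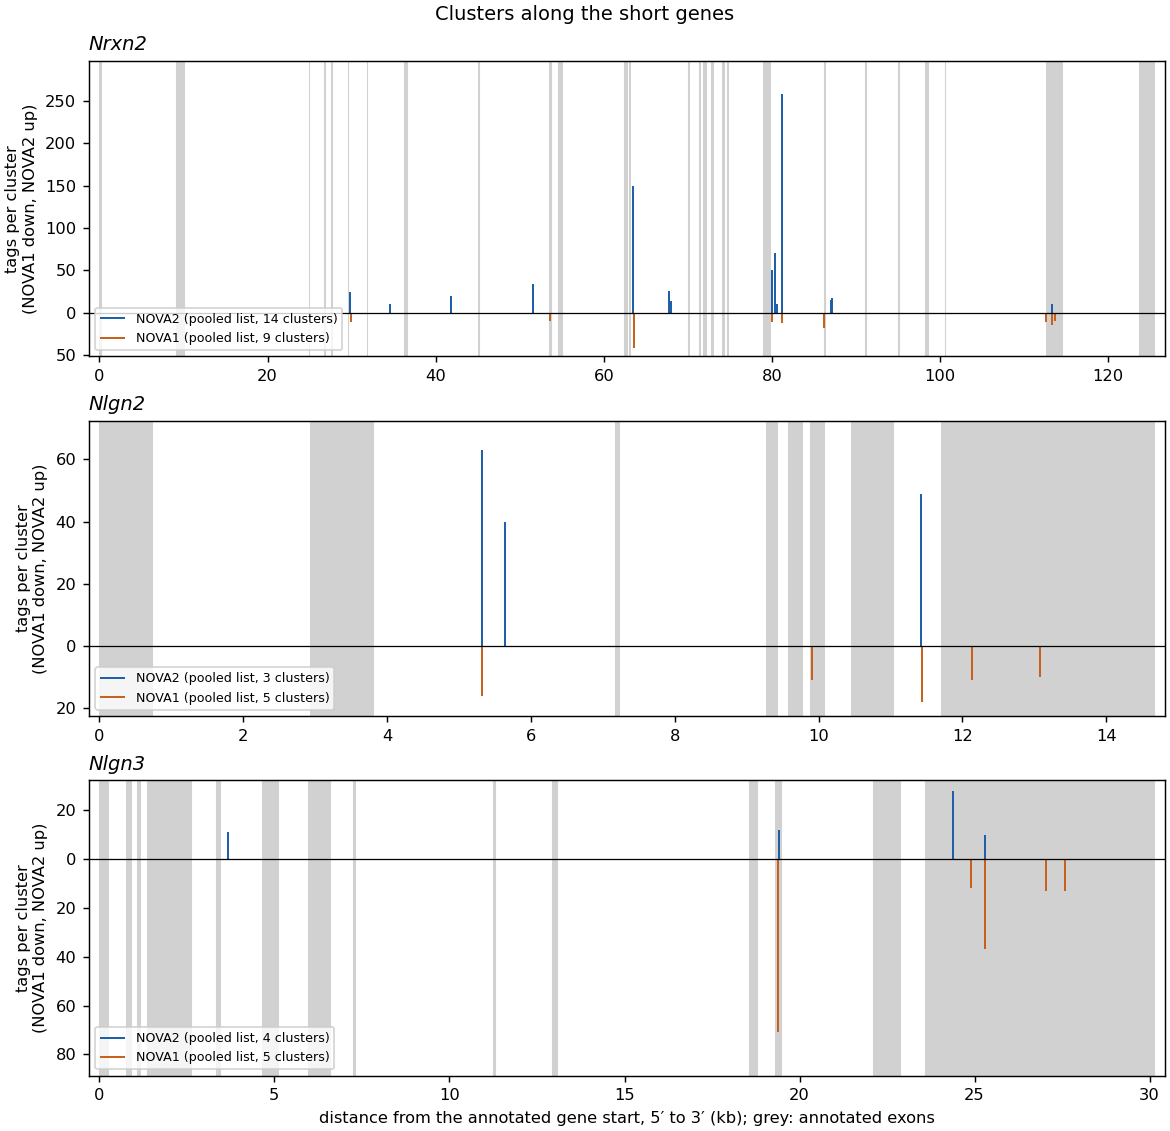
Tag count of each cluster (vertical axis; NOVA2 upward, NOVA1 downward) against distance from the gene start in kb for Nrxn2, Nlgn2 and Nlgn3, with annotated exons in grey. In Nrxn2 the NOVA2 clusters of 50, 71 and 258 tags stand together after the inner first exon, and in Nlgn3 the highest bars are the NOVA1 clusters of 71 and 37 tags, which lie on exons.

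Clusters were then placed in introns or exons by the annotation that covered most of their nucleotides. Of the NOVA1 clusters in these genes, 91 of 109 (83.5%, 75.4 to 89.3) were intronic, where the whole NOVA1 list had 40.3%. Of the NOVA2 clusters, 423 of 432 (97.9%, 96.1 to 98.9) were intronic, where the whole NOVA2 list had 74.6%. The lists also count 1161 NOVA1 and 4058 NOVA2 clusters outside genes, which the members cannot include by their rule. The intron shares of the lists within genes are therefore higher than these. For NOVA1 the share was 62 of 67 in Nrxn3 and 23 of 23 in Nlgn1. The short genes Nrxn2, Nlgn2 and Nlgn3 had 13 of their 19 NOVA1 clusters on exons (68.4%, 46.0 to 84.6). For NOVA2 it was 4 of 21 (19.0%, 7.67 to 40.0). Over the whole lists, 4805 NOVA1 clusters were exonic and 4022 intronic, and 5240 NOVA2 clusters were exonic and 27293 intronic. Both intervals include the exonic share of the list, so this contrast between the proteins is not particular to the short genes. In Nrxn2, NOVA1 had 4 clusters in coding sequence, 1 in the 3' UTR and 4 in introns. In Nlgn2 the counts were 2, 1 and 2, and in Nlgn3 they were 1, 4 and 0.

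**Figure D3:**
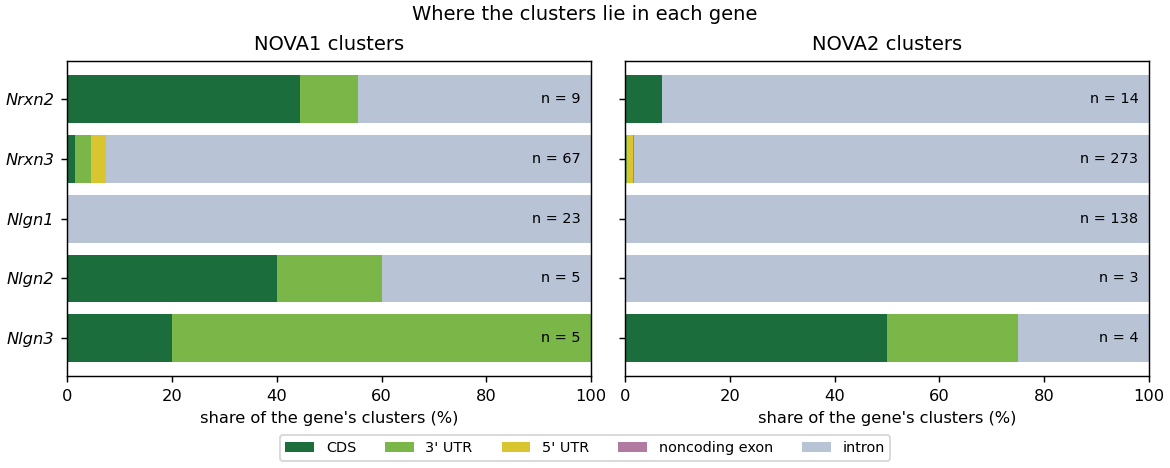
Share of each gene's clusters (horizontal axis, %) in coding sequence, 3' UTR, 5' UTR, noncoding exons and introns, for NOVA1 (left) and NOVA2 (right), with the number of clusters at each bar. Nrxn3 and Nlgn1 are almost wholly intronic in both lists, and Nlgn3 has 0 of 5 NOVA1 clusters in introns.

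Intronic clusters in the long genes lay far from exons, and these set the values over all 5 genes. The median distance to the nearest annotated exon was 37796 nt for NOVA1 and 35357 nt for NOVA2, against 11326 and 9715 nt for all intronic clusters of the lists. In the NOVA1 and NOVA2 lists in turn it was 32309 and 24488 nt in Nrxn3 and 72827 and 102470 nt in Nlgn1. It was 307 and 754 nt in Nrxn2 and 836 and 1481 nt in Nlgn2, and the single intronic cluster of Nlgn3, a NOVA2 cluster, lay 189 nt from an exon. Of the intronic NOVA2 clusters, 19 of 423 (4.49%, 2.89 to 6.91) lay within 500 nt of any exon, against 10.4% over the list. For NOVA1 it was 8 of 91 (8.79%, 4.52 to 16.4), against 12.6%.

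The overlap between the lists asked whether NOVA1 and NOVA2 clusters fell on the same sites. A NOVA2 cluster overlapped 96 of the 109 NOVA1 clusters (88.1%, 80.7 to 92.9), against 80.1% of the whole list, which lies just below the interval. Of the 432 NOVA2 clusters, 101 overlapped a NOVA1 cluster (23.4%, 19.6 to 27.6), against 22.1% of the whole list. The list is less intronic than these genes, and among intronic NOVA2 clusters alone the share was 94 of 423 (22.2%, 18.5 to 26.4) against 14.1% of the list. The share of the NOVA2 clusters was 49.1% when the NOVA2 list alone was cut at 25 or more tags. With at least 20 tags in both lists it was 41 of 208 (19.7%, 14.9 to 25.6). Within the genes the NOVA1 share was 64 of 67 in Nrxn3 and 23 of 23 in Nlgn1 but 5 of 9 in Nrxn2, 2 of 5 in Nlgn2 and 2 of 5 in Nlgn3. The NOVA2 share was 67 of 273, 25 of 138, 5 of 14, 2 of 3 and 2 of 4 in the same order. The difference followed the class of the cluster. Of the intronic NOVA1 clusters, 90 of 91 overlapped NOVA2 (98.9%, 94.0 to 99.8), and of the exonic NOVA1 clusters, 6 of 18 did (33.3%, 16.3 to 56.3). In the whole list the same shares were 95.5 and 67.3%.

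Overlap with NOVA1 also followed the NOVA2 tag count. Among the NOVA2 clusters of the 5 genes it was 12 of 224 at 10 to 19 tags (5.36%, 3.09 to 9.13), 30 of 127 at 20 to 49 tags (23.6%, 17.1 to 31.7) and 30 of 51 at 50 to 99 tags (58.8%, 45.2 to 71.2). The list's intronic clusters of these heights had 2.25, 12.8 and 47.4%, of which the first pair lies below the intervals of the members. The members' counts include exonic NOVA2 clusters, of which 7 of 9 overlapped NOVA1, so the comparison is not like for like. At 100 or more tags the overlap with NOVA1 was 29 of 30 (96.7%, 83.3 to 99.4), against 84.8% of the list's intronic clusters of that height. The exception was a 101-tag Nrxn3 cluster (chr12:90815778-90816227, intronic, 11 YCAY). In Nlgn1 the highest NOVA2 cluster without NOVA1 had 70 tags (chr3:25738419-25738589) and in Nrxn2 it had 71 tags. NOVA1 clusters without NOVA2 stayed low, with at most 15 tags in Nrxn3 (coding sequence), 18 in Nrxn2 (coding sequence), 11 in Nlgn2 and 13 in Nlgn3, and there were 0 in Nlgn1.

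Tag counts were compared where a NOVA1 and a NOVA2 cluster overlapped each other and nothing else, which gave 88 pairs. NOVA2 had more tags in most of them, by a median of 3.41-fold (median log2 of NOVA1 over NOVA2 -1.77, quartiles -2.28 and -1.25), and NOVA1 had more in 6. Over the 6770 pairs of the whole lists the median was -1.34, and NOVA1 had more tags in 1005. Among the 82 intronic pairs of the 5 genes the median log2 was -1.82, and over the list's 3452 intronic pairs it was -2.04. NOVA1 had more tags in 3 and 70 of these. Among the 6 exonic pairs the median was 0.21, with more NOVA1 tags in 3. The 2532 exonic pairs of the lists had -0.38, with more NOVA1 tags in 826. The widest gap in favour of NOVA2 was the Nrxn2 cluster after the inner start, with 258 NOVA2 and 12 NOVA1 tags (21.5-fold, log2 -4.43). Across the 61 pairs of Nrxn3, Spearman's rho of the tag counts was 0.66, a description across clusters of the same pooled libraries, which are not replicates.

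Nlgn3 was the only member with more NOVA1 than NOVA2 tags, 146 against 61, a NOVA2 to NOVA1 ratio of 0.418. The ratio was 6.46 over the 5 genes, 8.49 in Nlgn1, 6.56 in Nrxn3, 5.15 in Nrxn2 and 2.30 in Nlgn2. Of the protein-coding genes with both lists, 12.0% had more NOVA1 tags, so 1 such gene in 5 is near the background. Both Nlgn3 pairs lay on exons. A coding exon had 71 NOVA1 and 12 NOVA2 tags (chrX:98510510-98510632 in NOVA1, log2 2.56), and the 3' UTR had 37 and 10 (chrX:98516404-98516521 in NOVA1, log2 1.89). The other exonic pairs had 76 NOVA1 and 148 NOVA2 tags, 21 and 22, and 11 and 30 in Nrxn3, and 14 and 10 in Nrxn2. Leaving Nlgn3 aside, 4 pairs had more NOVA1 tags and each by at most log2 0.49.

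**Figure D4:**
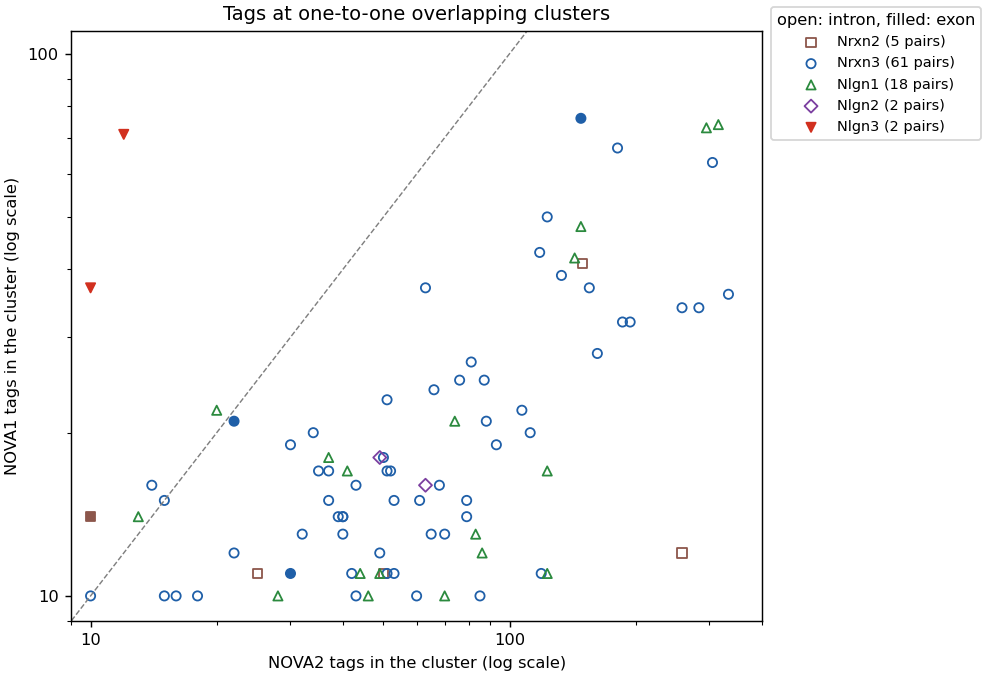
NOVA1 tags (vertical, log scale) against NOVA2 tags (horizontal, log scale) at the 88 pairs of clusters that overlap only each other, with a symbol per gene, filled where the cluster is exonic and open where it is intronic; the dashed line marks equal counts. Both Nlgn3 pairs stand far above the line, most other pairs stand below it, and the Nrxn2 pair at 258 NOVA2 and 12 NOVA1 tags stands farthest below.

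Alternative exons were taken from the annotation as cassette exons, internal exons that lie wholly inside an intron of another transcript of the gene. The 5 genes have 23, in 20 separate places since some share an edge, and 19 of them are coding. Clusters within 500 nt of a cassette exon numbered 4 of 109 in NOVA1 (3.67%, 1.44 to 9.06) and 8 of 432 in NOVA2 (1.85%, 0.941 to 3.61). All intragenic clusters of the lists had 2.96 and 2.55%, and both intervals include the share of the list. With cassette exons of protein-coding transcripts alone, the NOVA2 share was 4 of 432 (0.926%, 0.361 to 2.36). Of the 20 places, 5 had a NOVA1 cluster within 500 nt, 7 had a NOVA2 cluster, 4 had both and 12 had neither. All lay in the neurexins, 2 in Nrxn2 and the others in Nrxn3, and 0 in the neuroligins.

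The splice site 4 exon of Nrxn3 is 90 nt long and had a NOVA2 cluster within 500 nt. The exon and the cluster are shown because they give the closest placement of NOVA2 to the exon with the best known effect on partner choice.
Nrxn3 exon, chr12:91437587-91437676: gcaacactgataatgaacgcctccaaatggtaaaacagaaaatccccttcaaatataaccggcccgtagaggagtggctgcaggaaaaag
Nrxn3 NOVA2 cluster after it, 12 tags, chr12:91437702-91437867: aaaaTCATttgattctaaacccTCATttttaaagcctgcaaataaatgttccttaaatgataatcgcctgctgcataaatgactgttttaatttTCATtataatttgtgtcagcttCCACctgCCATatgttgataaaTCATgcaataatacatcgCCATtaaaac
The exon holds 0 YCAY. The NOVA2 cluster of 12 tags began 26 nt downstream of the exon and held 7 YCAY, without NOVA1 overlap, and the nearest NOVA1 cluster lay 9952 nt upstream. The 500 nt downstream of the exon held 12 YCAY and the 500 nt upstream held 8. A count of 12 tags is close to the limit of 10.

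Both neurexins also have a 30-nt coding exon, chr19:6448255-6448284 in Nrxn2 and chr12:90088723-90088752 in Nrxn3, and both had NOVA2 downstream of it. The exon is a cassette in the Nrxn2 annotation and has an alternative end, but no skipping transcript, in that of Nrxn3.
Nrxn2 NOVA2 cluster, 25 tags, chr19:6448513-6448686: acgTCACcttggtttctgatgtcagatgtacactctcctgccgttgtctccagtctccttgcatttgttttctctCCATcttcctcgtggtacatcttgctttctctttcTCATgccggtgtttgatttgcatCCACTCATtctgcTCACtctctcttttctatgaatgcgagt
Nrxn3 NOVA2 cluster, 87 tags, chr12:90089156-90089265: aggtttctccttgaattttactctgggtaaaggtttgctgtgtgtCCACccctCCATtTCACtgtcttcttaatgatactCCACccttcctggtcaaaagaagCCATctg
In Nrxn2 the NOVA2 cluster of 25 tags began 229 nt after the exon, overlapped by a NOVA1 cluster of 11 tags 271 nt after it. In Nrxn3 the NOVA2 cluster of 87 tags began 404 nt after the exon and had no NOVA1 overlap. The 500 nt downstream of each exon held 13 YCAY, against 7 in Nrxn2 and 3 in Nrxn3 for the 500 nt upstream. The exons themselves are identical at 14 of 30 bases and hold 1 YCAY each.

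The remaining Nrxn3 sites lay on or before their exons, except 1 that lay after its exon. A NOVA2 cluster of 18 tags spanned an exon annotated at 27 and 31 nt with a shared end (chr12:90592897-90592923), with 4 YCAY, all outside the exon.
Nrxn3 NOVA2 cluster over the 27-nt exon, 18 tags, chr12:90592864-90592956: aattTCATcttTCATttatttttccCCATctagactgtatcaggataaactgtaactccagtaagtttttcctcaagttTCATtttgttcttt
A NOVA2 cluster of 10 tags, 1 of 4 NOVA2 clusters in the 5 genes without a YCAY, ended 77 nt upstream of another 27-nt exon (chr12:90756350-90756376). Both were absent from the NOVA1 list. A 101-nt exon that the annotation gives as noncoding was overlapped by 61 NOVA2 and 15 NOVA1 tags, and the NOVA1 cluster also lay 473 nt downstream of a 26-nt exon. The highest counts at any cassette exon were in a 706-nt exon near the 3' end of Nrxn3 (chr12:91560376-91561081), classed as 5' UTR, with 148 NOVA2 and 76 NOVA1 tags. Its exon sequence held 15 YCAY. In Nrxn2, a 62-nt exon that ends where the beta-type first exon ends had 2 NOVA2 clusters, of 50 and 71 tags, and 1 NOVA1 cluster of 11 tags within 500 nt downstream, and these are the clusters after the inner start described above.

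**Figure D5:**
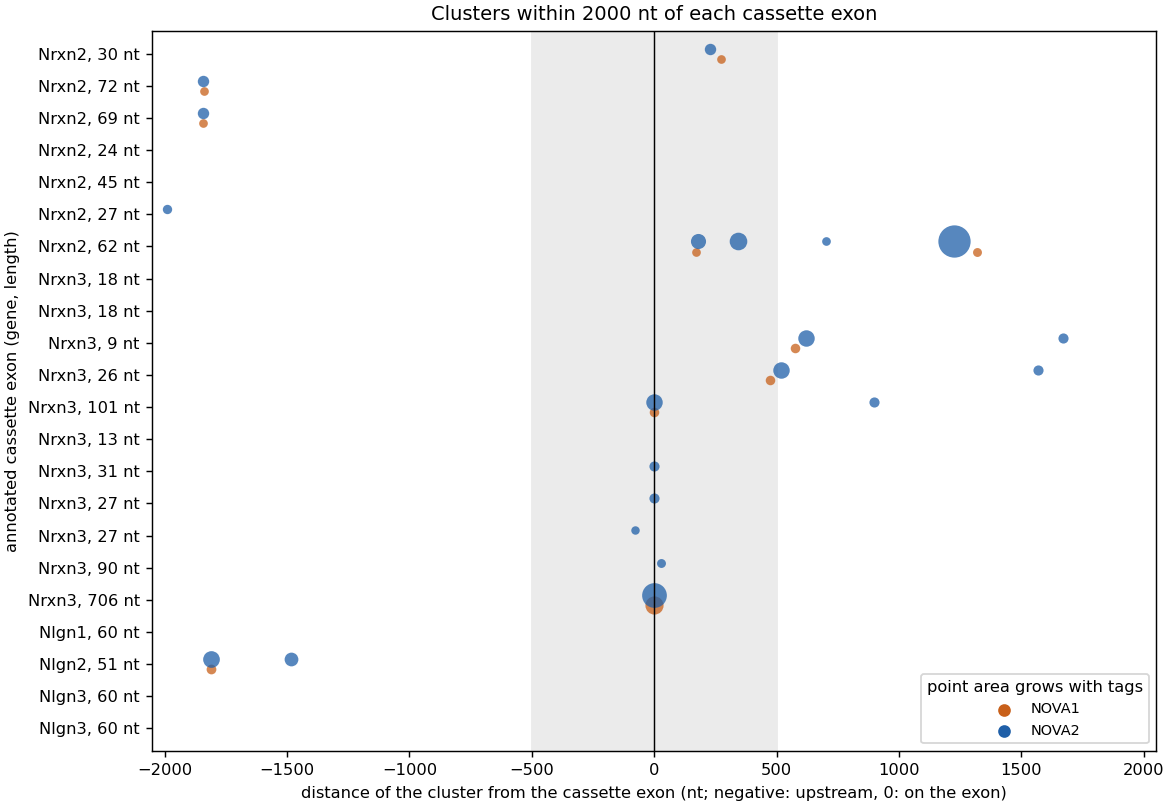
Distance of each cluster within 2000 nt (horizontal axis, nt; negative is upstream, 0 is on the exon) from 22 of the 23 annotated cassette exons (rows, gene and length), with point area growing with tags and the 500-nt zone shaded. Points in the zone belong to Nrxn2 and Nrxn3, and the nearest cluster of a neuroligin cassette exon stands 1485 nt upstream in Nlgn2.

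The cassette exons of the neuroligins had no cluster within 500 nt. The 60-nt exon of Nlgn1 (chr3:25819100-25819159) had its nearest NOVA2 cluster 15256 nt upstream and its nearest NOVA1 cluster 37148 nt downstream. The Nlgn1 exon with alternative ends (213 or 186 nt) had its nearest NOVA2 cluster 18962 nt upstream, with 16 tags. In Nlgn2 the 51-nt cassette exon had NOVA2 clusters of 40 and 63 tags, 1485 and 1812 nt upstream, and the 63-tag cluster was overlapped by 16 NOVA1 tags. These are 2 of the 3 NOVA2 clusters of the gene, and the remaining cluster, of 49 tags with 18 NOVA1 tags, lay in an intron 213 nt from an exon. In Nlgn3 the nearest clusters to the 60-nt cassette exons lay 3510 and 7513 nt upstream, both the same NOVA2 cluster of 11 tags.

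YCAY stood at 41.7 per 1000 positions in the NOVA1 and 39.2 in the NOVA2 clusters of the 5 genes, 2.27- and 2.06-fold above flanks 200 to 500 nt away. The whole lists had 2.02 and 2.29, but the NOVA1 list is less intronic than these genes. Over intronic clusters alone the folds were 2.59 and 2.07 in the 5 genes and 2.81 and 2.41 in the lists. The whole gene spans held between 17.3 (Nlgn1) and 19.8 (Nlgn3) per 1000. At least 3 YCAY were found in 87 of 109 NOVA1 clusters (79.8%, 71.3 to 86.3) and 349 of 432 NOVA2 clusters (80.8%, 76.8 to 84.2), against 80.0 and 82.9% of the lists. By gene, the NOVA1 fold over flanks was 2.79 in Nrxn3, 2.31 in Nlgn1, 1.34 in Nrxn2, 0.859 in Nlgn2 and 0.837 in Nlgn3. The NOVA2 fold was 2.09, 2.09, 1.74, 1.77 and 1.44 in the same order. Pooled by gene, the NOVA1 clusters of Nlgn2 and of Nlgn3 thus held no more YCAY than their flanks. Against the whole gene span, their YCAY rate was higher in Nlgn2 and lower in Nlgn3. Single clusters differed. The 16-tag NOVA1 cluster of Nlgn2 held 7 YCAY, and the others of that gene held 4, 2, 2 and 2. A flank of the 16-tag cluster contained the 40-tag NOVA2 cluster, which held 8 YCAY. The 71-tag Nlgn3 coding cluster had 0, and so did the 12-tag NOVA2 cluster inside it. In Nlgn1, NOVA2 clusters with and without NOVA1 overlap had much the same fold, 2.10 and 2.13, and in Nrxn3 it was 2.42 and 1.96.

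Other genes of the same trans-synaptic complex were counted in the same way, from a list of 23. NOVA1 clusters lay in 19 and NOVA2 clusters in 18, against 12.7 and 22.7% of all protein-coding genes, and 4 had neither, namely the secreted proteins Cbln1, Cbln4 and Nxph3 and the adhesion protein Lrrtm1. Of the 470 NOVA2 clusters, 448 were intronic, and of the 127 NOVA1 clusters, 94 were, where the whole lists had 74.6 and 40.3%. These list shares also count clusters outside genes. Magi2, a postsynaptic scaffold that binds neuroligins, held 27 NOVA1 and 138 NOVA2 clusters over 1478 kb, all intronic, with 566 and 5525 tags. Lrrtm4, a postsynaptic adhesion protein, held 26 and 92 clusters, and Nxph1, a secreted ligand of alpha-neurexins, held 7 and 40. Among the inhibitory partners, Gphn (gephyrin, the scaffold that anchors inhibitory receptors) held 5 NOVA1 and 40 NOVA2 clusters, with 541 and 1221 tags. Shank1, a scaffold of excitatory synapses, had 852 NOVA1 and 2466 NOVA2 tags in 16 and 12 clusters, 6 and 7 of them intronic. In 5 of the 23 genes NOVA1 had more tags than NOVA2, with at most 38 tags of NOVA1 in any of them. Of the 5, 1 had no NOVA2 cluster, so 4 of the 18 genes with both lists had more NOVA1 tags, against 12.0% of all protein-coding genes with both lists.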

How the data were processed

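Per the labels and the methods of the study, reads of NOVA1 and NOVA2 HITS-CLIP libraries were aligned to mm9 with Novoalign, PCR duplicates were collapsed, and clusters with tags from at least 2 of 3 libraries and at least 10 tags were kept. The deposited tag counts are whole-number counts that the authors pooled over 3 libraries, not scaled to library size. The study describes the limit as a peak height, so a value may be the greatest depth of tags in a cluster. A deeper library passes the fixed limit at weaker sites. The lists do not hold library depth, and the totals of unique tags that the study gives for each library, higher for NOVA2, were not used here.

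Positions were counted from 1 in NCBIM37 (mm9). GENCODE vM1 gave gene spans, classes (order of precedence: coding sequence, 3' UTR, 5' UTR, noncoding exon, intron; retained introns left out) and cassette exons. Overlap required 1 nt on the same strand. YCAY was counted per start position. For a gene name with several entries the longest span was used. Per gene, the highest cluster of each list, the highest without overlap and those within 500 nt of a cassette exon were to be named. The members, lists and rules were chosen with earlier results of these data known. Functions were tested on simulated data. Alternatives were other overlap rules, tag limits, distances, exon definitions and flanks, and leaving out each gene. Python 3.11.15, NumPy 2.4.6, SciPy 1.17.1, pysam 0.24.0 and matplotlib 3.10.9 were used. Reads, values per library and the study's RNA-seq were not used here. A cassette exon of Nrxn2 is counted in the totals but not reported here.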

Additional observations from a re-analysis of the deposited data

How the results depend on the processing

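Of 91 values recomputed under alternatives, 73 stayed within the counting interval of the value reported (for cluster counts, within 1.5 times of it) and 18 moved outside. The overlap share of NOVA1 clusters became 94.9% with at least 20 tags in both lists, 76.1% against NOVA2 clusters of at least 25 tags, 72.5% against a NOVA2 list cut to the length of the NOVA1 list and 76.2% without Nrxn3. The overlap share of NOVA2 clusters became 49.1% with the NOVA2 list alone limited to 25 or more tags and 58.0% in the cut list. The intron share of NOVA1 clusters became 89.7% at 20 or more tags and 69.0% without Nrxn3. Without Nrxn3, the clusters numbered 42 (NOVA1) and 159 (NOVA2) and the NOVA1 YCAY fold was 1.64. That fold was 2.59 over intronic clusters, and the NOVA2 fold was 2.17 with flanks 500 to 1000 nt away. The share of NOVA2 clusters near cassette exons was 0.926% with exons of protein-coding transcripts alone. The ratio of NOVA2 to NOVA1 tags was 8.33 at 20 or more tags, 3.88 over overlapping clusters, 5.85 without Nlgn1 and 6.83 without Nlgn3. The cause of these shifts was not tested, beyond the change of clusters that each alternative makes. No paired analysis was possible because the counts were pooled over libraries and carry no replicate numbers. A site under 10 tags is missing from a list, so an absent cluster gives only that limit, and Nlgn2 and Nlgn3, with 3 to 5 clusters per list, have the widest intervals.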
